A study of Mus musculus with 24 samples.

Results

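The kallikreins Klk5 to Klk14 are 10 secreted serine proteases encoded side by side on mouse chromosome 7. They were chosen by gene symbol from the 54838 genes of the RNA table, and all 10 had a row. The choice was made with earlier values of the T-ERG minus control difference known, where Klk8 and Klk14 were among the higher genes, so levels by genotype are given as a description without a test. The libraries came from ventral prostate organoids, epithelial cultures grown from dissociated cells in drops (domes) of basement membrane gel, of a mouse aged 4 months. Organoids of the genotype Tmprss2-ERG (T-ERG) were set against organoids of Tmprss2-fl/fl-ERG (control). Both names hold Tmprss2 and ERG, and no recombinase, promoter or ERG sequence is described in the labels. Each genotype had 2 clones with 5 domes each, 1 library per dome, which gives 10 libraries per genotype and 20 in all. Domes of a clone are technical replicates per the labels, and the labels do not say if a genotype's clones had different donor animals. No added agent is named for any group, and the study also has 4 whole-genome libraries that were not analysed here.

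Kallikreins are made as inactive precursors and are activated when another protease removes a short leading peptide. In the outer epidermis they act as a cascade that cuts the proteins joining dead keratinocytes, so that cells are shed, a process called desquamation. In human skin KLK5 activates itself and then KLK7 and KLK14, and the inhibitor encoded by Spink5 restrains them. These genes are best known from stratified epithelia, while prostate-specific antigen, a kallikrein of human prostate fluid, is another member of the family.

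The name of proteases of desquamation fitted the measured genes only in part, because the central enzymes of that process were at or near 0. Klk5, the initiating protease, was listed at 0 in all 20 libraries. Klk7, the chymotrypsin-like protease that cuts corneodesmosin, was listed at 0 in 6 of 10 T-ERG libraries and 9 of 10 control libraries and reached at most 0.33 FPKM in T-ERG and 0.16 FPKM in control. FPKM values correct fragment numbers for the length of the transcript and the size of the library, so levels can be compared between genes per unit of length. Klk6, a trypsin-like protease, was above 0 in 2 T-ERG libraries and 1 control library, with a highest value of 0.39 FPKM. A value near 0 need not mean a low level, since the mitochondrial gene mt-Co3 was below 1 FPKM in 9 libraries and at 227.5 FPKM or more in the others. It was listed at exactly 0 in no library, so it does not show if a listed 0 means absence.

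Klk8, Klk10, Klk11, Klk12, Klk13 and Klk14 were the 6 members that passed the filter of at least 1 FPKM in at least 5 libraries. All 6 were at 1 FPKM or more in every one of the 10 T-ERG libraries. In control, Klk12 reached 1 FPKM in 3 of 10 libraries and Klk14 in 0. Klk12 and Klk14 thus passed only through T-ERG, the group where they were higher. Klk9, which lies between Klk10 and Klk8, did not pass the filter, with 1 FPKM or more in only 2 libraries. It ranged from 0.20 to 1.33 FPKM (median 0.485) in T-ERG, against 0 to 0.51 FPKM in control, where 8 of 10 libraries were listed at 0.

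The 10 genes span 170.3 kb on chromosome 7 (GRCm38.p6, 43680880 to 43851181, RefSeq annotation), all on the plus strand, in the order Klk14, Klk13, Klk12, Klk11, Klk10, Klk9, Klk8, Klk7, Klk6, Klk5. The tested members lay in the first 7 genes of this order, and the last 3, Klk7, Klk6 and Klk5, were at or near 0. Klk12, Klk11 and Klk10 sit within gaps of 1.0 and 1.8 kb of each other, while 41.0 kb separate Klk13 from Klk12. The 1 annotated gene in between, 2310002F09Rik on the minus strand, averaged 1.35 and 3.00 FPKM in T-ERG clones 2 and 1, and 1.25 and 2.40 FPKM in control clones 2 and 1. The level did not change steadily along the block, since Klk9, at most 1.33 FPKM, starts 6.2 kb after Klk10 ends and ends 0.8 kb before Klk8 starts.

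The genes next to the block are given for comparison. Ctu1, a tRNA-modifying enzyme gene that ends 2.6 kb before Klk14, was at 3.91 to 7.13 FPKM over all 20 libraries, and averaged 5.47 and 4.97 FPKM in T-ERG clones 2 and 1 and 4.89 and 5.90 FPKM in control clones 2 and 1. On the other side Klk4, the kallikrein of tooth enamel, was listed at 0 in all libraries and Klk15 was above 0 in 1 library, at 1.22 FPKM in T-ERG. Of 17 other kallikrein genes, which include Klk1, Klk4, Klk15, the Klk1b cluster and the unlinked plasma kallikrein Klkb1, none passed the filter and 10 were listed at 0 throughout. Their summed level reached at most 2.20 FPKM in T-ERG and 0.68 FPKM in control.

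**Figure D1:**
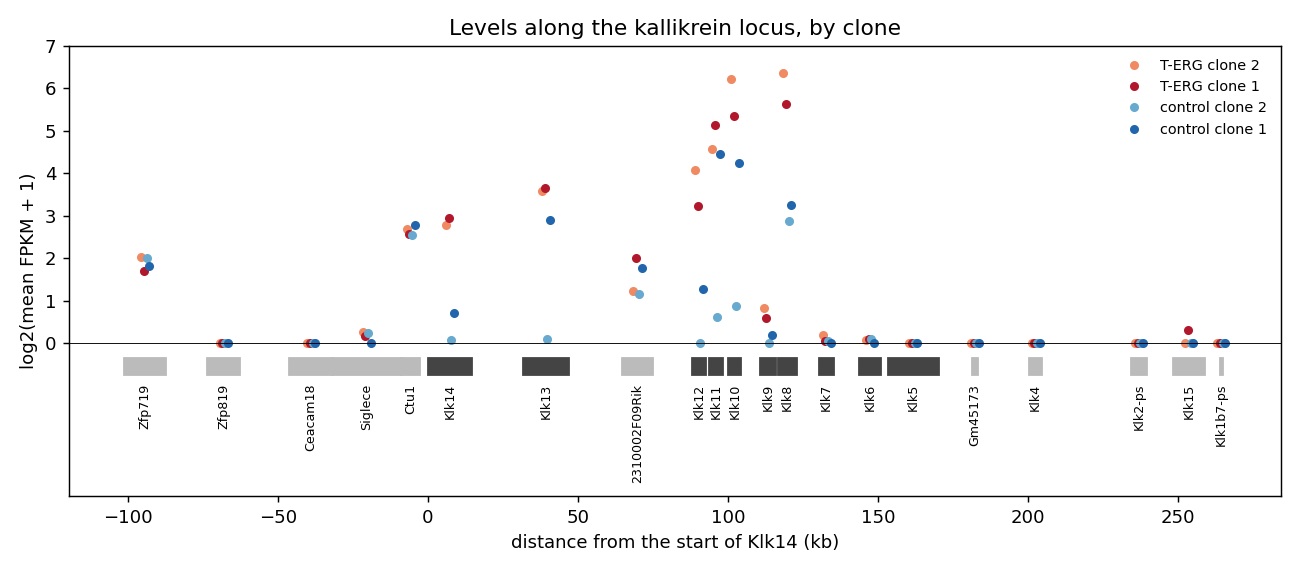
Levels along the kallikrein locus. The vertical axis is log2 of the mean FPKM of a clone plus 1 (5 libraries each), the horizontal axis the distance in kb from the start of Klk14; dark boxes are the 10 members and grey boxes their annotated neighbours. Klk14 to Klk8 hold the high levels, apart from Klk9, while Klk7 to Klk5 and the 5 genes beyond them lie at or near 0, and control clone 2 is above 1 on the log2 axis only at Klk8 among the members.

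The sequence before the annotated gene start is shown for Klk8, the member with the highest level in T-ERG, for Klk10, whose window holds a longer ETS motif, and for Klk11, the member that differed most between the control clones. The sequences are from RefSeq on GRCm38.p6, plus strand, 5′ to 3′, at chr7:43797327-43797531 for Klk8, chr7:43780804-43781053 for Klk10 and chr7:43774367-43774616 for Klk11. Capitals mark CCGGAAG, a core bound by ETS factors, the family of ERG, which in Klk10 reads on the minus strand.
Klk8: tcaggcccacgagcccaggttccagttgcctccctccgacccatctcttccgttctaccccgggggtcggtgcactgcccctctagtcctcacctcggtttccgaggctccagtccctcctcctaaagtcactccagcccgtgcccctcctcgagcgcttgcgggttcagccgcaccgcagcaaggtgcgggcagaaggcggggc
Klk10: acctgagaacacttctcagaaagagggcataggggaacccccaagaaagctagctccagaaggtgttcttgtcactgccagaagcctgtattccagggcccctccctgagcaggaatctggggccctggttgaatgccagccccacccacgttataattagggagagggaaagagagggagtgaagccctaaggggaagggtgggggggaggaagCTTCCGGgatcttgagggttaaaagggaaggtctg
Klk11: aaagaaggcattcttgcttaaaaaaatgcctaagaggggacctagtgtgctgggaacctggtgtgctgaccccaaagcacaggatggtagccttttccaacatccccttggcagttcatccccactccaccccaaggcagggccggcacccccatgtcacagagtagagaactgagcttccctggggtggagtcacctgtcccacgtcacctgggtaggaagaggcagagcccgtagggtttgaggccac

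The 10 genes had 12 promoter windows (250 bases before and 50 after a transcription start) in the RefSeq table, and the same motifs were counted in all 32851 windows of that length. The only windows of Klk14, Klk9 and Klk5 lie inside the annotated gene, so the sequence before their gene start was not searched. All motifs were searched on both strands. GGAA, the shortest ETS core, which also lies inside CCGGAAG, was in all 12 windows and in 96.0% of all windows. Klk10 had 8 GGAA matches, and Klk13 and the second window of Klk11 had 7 each, against a median of 3 and a 95th percentile of 7 over all windows, while Klk7 had 2. CCGGAAG was in 1 of 12 windows, that of Klk10, starting at position -35 on the minus strand, and in 8.9% of all windows. ACCNGTT, a partial core of the epithelial Grainyhead-like factors, was in 1 of 12 windows, that of Klk12, starting at -77 and -47 on the minus strand, and in 8.1% of all windows. The AP-1 motif TGANTCA and the TATA motif TATAAA had no match in the 12 windows and were in 7.8% and 13.6% of all windows. CACCC, a core of Krüppel-like factors, was in 9 of 12 windows and in 57.5% of all. These letters are a description of the windows, and binding was not measured.

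Before the members are compared, the libraries can be placed as follows. The FPKM of a library summed to between 728255 and 794589. The absolute depth is unknown, and a relative depth estimated from 307 to 505 rarely detected genes per library ran from 0.863 to 1.193. Mouse Erg was at 0.54 to 3.17 FPKM in T-ERG and 0.32 to 2.23 FPKM in control, and Tmprss2 at 32.3 to 57.2 FPKM in T-ERG and 85.2 to 107.4 FPKM in control. The genotypes did not overlap in Tmprss2 and overlapped in mouse Erg. Of 6 basal markers, all tested, the clone means of 3 were higher in T-ERG and those of 1 lower, where 21.7% and 23.2% of tested genes were. The keratin gene Krt5 was at 7009 to 9895 FPKM in T-ERG and 4801 to 5874 FPKM in control, while Krt15 was at 3075 to 6829 FPKM in T-ERG and 6340 to 12824 FPKM in control. The 6 fibroblast markers summed to at most 5.17 FPKM in T-ERG and 3.56 FPKM in control. Of 4 leukocyte markers only Cd68 was above 0, at most 5.89 FPKM in T-ERG and 12.2 FPKM in control, the 3 endothelial markers summed to at most 0.49 FPKM in T-ERG and 0.64 FPKM in control, and the 4 seminal vesicle markers were listed at 0.

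The 6 tested kallikreins had higher mean levels in T-ERG than in control organoids, and the 10 genes together summed to 203.9 to 216.9 FPKM in T-ERG clone 2, 141.6 to 161.0 in T-ERG clone 1, 5.2 to 12.3 in control clone 2 and 51.2 to 60.5 in control clone 1. The clone means of T-ERG exceeded those of control for all 6 tested members, as they did for 21.7% of the 12899 tested genes. For 5 of the 6 each T-ERG library exceeded each control library, as for 2.5% of tested genes, and 3.7% were separated the other way. The members were chosen with this contrast known, so these shares are set side by side only. Klk12 and Klk14 also entered the 6 only through the T-ERG libraries. In bulk RNA, more cells of a type and more RNA per cell cannot be told apart.

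Klk8, also called neuropsin, is a trypsin-like protease that in human epidermis is an activator of KLK11. It was at 38.6 to 90.15 FPKM (median 69.45) in T-ERG and at 3.74 to 11.04 FPKM (median 7.63) in control. No T-ERG library overlapped a control library, and the difference of clone means was 2.96 ± 0.32 log2 units, 7.80-fold on the log2(FPKM + 1) scale (SE, 2 clones per genotype). On that scale changes of low genes come out too small. The difference was 3.18 against control clone 2 and 2.75 against control clone 1.

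Klk14, a trypsin-like protease that in human skin cuts desmoglein 1 and activates the receptor encoded by F2rl1, was lower in level. It had 3.42 to 8.74 FPKM (median 6.495) in T-ERG and 0 to 0.92 FPKM (median 0.28) in control, where 4 of 10 libraries were listed at 0. The groups did not overlap, and the difference was 2.45 ± 0.30 log2 units, with 2.77 against control clone 2 and 2.13 against control clone 1.

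Klk12, a trypsin-like protease, was at 6.54 to 17.4 FPKM (median 12.1) in T-ERG and 0 to 3.02 FPKM (median 0.385) in control. The groups did not overlap, and the difference was 3.04 ± 0.52 log2 units. It was 3.64 against control clone 2, in which all 5 libraries were listed at 0, and 2.43 against control clone 1. With a pseudocount of 0.1 in place of 1 the differences of Klk12, Klk13 and Klk14 were 4.97, 3.55 and 4.36 log2 units. Klk12 and Klk14 were low in both control clones, and Klk13 in control clone 2.

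Klk10, known as a gene of normal epithelium that is lost in many human breast tumours, had 34.7 to 75.3 FPKM (median 57.0) in T-ERG and 0.60 to 20.1 FPKM (median 8.77) in control. The groups did not overlap, but the control libraries formed separate clusters. The difference of 3.23 ± 1.15 log2 units was 4.92 against control clone 2 and 1.53 against control clone 1.

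Klk13, a trypsin-like protease, had 9.75 to 14.1 FPKM (median 10.96) in T-ERG and 0 to 9.35 FPKM (median 1.895) in control. The lowest T-ERG library lay just above the highest control library. The difference of 2.14 ± 0.93 log2 units was 3.53 against control clone 2 and 0.75 against control clone 1.

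Klk11, a protease also called hippostasin, had 20.9 to 35.9 FPKM (median 28.2) in T-ERG and 0 to 24.6 FPKM (median 8.995) in control, and was the 1 tested member whose libraries overlapped. The overlap lay between T-ERG clone 2, at 20.9 to 24.2 FPKM, and control clone 1, at 17.0 to 24.6 FPKM. The difference of 2.34 ± 1.29 log2 units was 4.28 against control clone 2 and 0.40 against control clone 1. Without control clone 2 the differences of Klk11, Klk13 and Klk10 thus shrank more than those of Klk8, Klk12 and Klk14.

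**Figure D2:**
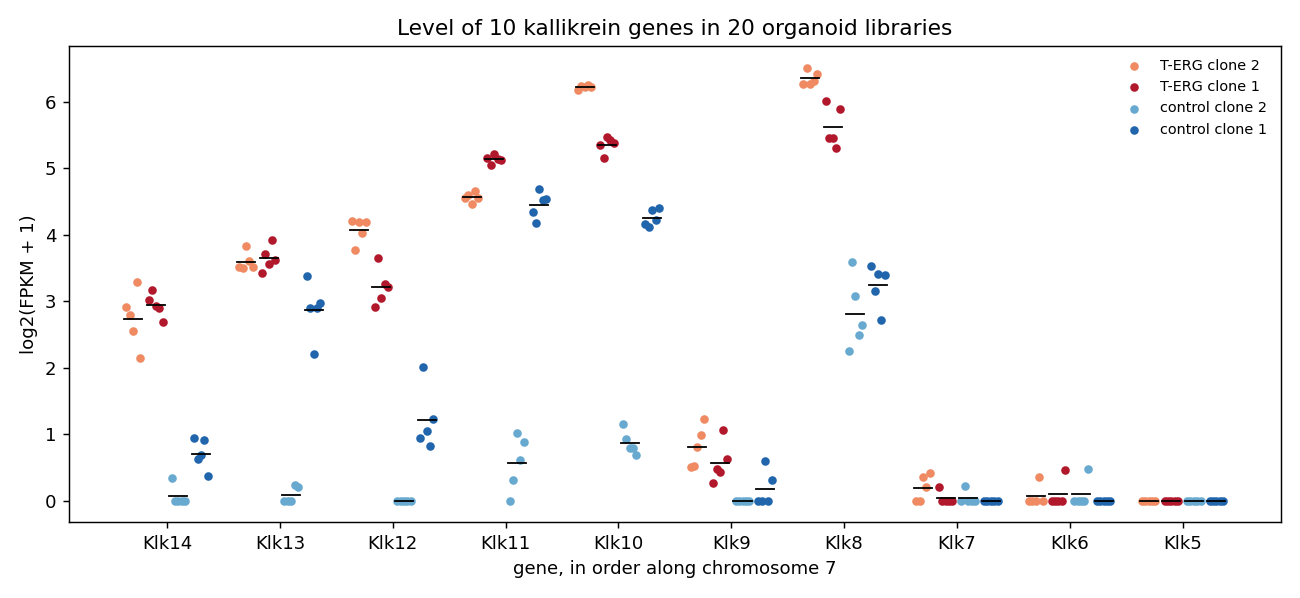
Level of the 10 kallikrein genes in 20 organoid libraries, as log2(FPKM + 1) on the vertical axis. Each point is 1 library, coloured by clone (5 libraries each), short lines are clone means, and genes run in chromosome order; control clone 2 lies below control clone 1 for Klk10 to Klk14 without overlap, while for Klk8 the control clones overlap.

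The clones of one genotype were then compared with limma over all 12899 tested genes. The members were chosen with earlier results of these data known, and the genotype difference is made of the same clone means. The choice may thus not be independent of this contrast. The p-values measure the spread between domes of these clones only, and the 2 genotypes do not share clones, so clone 2 of one is not matched to clone 2 of the other. In control, 5 of the 6 tested members were lower in clone 2 and none was higher, where 13.2% of tested genes were called lower and 25.1% higher. Of these 5, Klk12 and Klk14 passed the filter only through T-ERG, and every control value of Klk14 was below 1 FPKM. After centring each library on its median, 2390 genes were called higher and 2287 lower in control clone 2, against 3233 and 1706 without it. The median over all genes was 0.10 log2 units higher in control clone 2, against which the kallikrein differences can be read.

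Klk11 had 0, 0.24, 1.03, 0.52 and 0.84 FPKM in the 5 libraries of control clone 2, against 19.2, 17.0, 24.6, 21.9 and 22.1 FPKM in control clone 1. All libraries of clone 2 lay far below those of clone 1, and the difference was -3.88 ± 0.19 log2 units (limma adjusted p = 4.93e-08). Klk10 had 1.22, 0.90, 0.73, 0.73 and 0.60 FPKM in control clone 2, against 16.9, 16.3, 19.6, 17.7 and 20.1 FPKM in control clone 1. It was likewise lower in every clone 2 library, with a difference of -3.38 ± 0.11 (limma adjusted p = 2.17e-09). Klk13 was listed at 0 in 3 libraries and at 0.18 and 0.15 FPKM in the others of control clone 2, against 9.35, 6.46, 3.61, 6.40 and 6.87 FPKM in control clone 1. The clones did not overlap, and clone 2 was lower, at -2.78 ± 0.20 log2 units (limma adjusted p = 7.98e-07).

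Klk12 was listed at 0 in all 5 libraries of control clone 2, against 0.92, 3.02, 1.06, 0.77 and 1.35 FPKM in control clone 1. Both clones were low, and the difference of -1.21 ± 0.22 log2 units (limma adjusted p = 0.00125) depends on the pseudocount, being -3.77 with 0.1. Klk14 had 0.27 FPKM in 1 library of control clone 2 and 0 in the others, against 0.92, 0.55, 0.60, 0.88 and 0.29 FPKM in control clone 1. Its difference of -0.64 ± 0.17 log2 units passed (limma adjusted p = 0.0127), with the highest clone 2 library just below the lowest of clone 1. With a pseudocount of 0.1 the control clone differences of Klk13 and Klk14 were -5.43 and -2.45.

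Klk8 was the exception between the control clones. It had 3.74, 11.04, 7.39, 4.63 and 5.21 FPKM in clone 2, against 10.5, 7.87, 9.64, 5.54 and 9.54 FPKM in clone 1. The clones overlapped, and the difference of -0.43 ± 0.25 log2 units did not pass (limma adjusted p = 0.2, 95% interval -0.98 to 0.12). Without library 7, the highest of clone 2, it was -0.63 and passed (limma adjusted p = 0.0376), and without each other library the adjusted p lay between 0.104 and 0.390.

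Between the T-ERG clones members differed in both directions. Of the 6 tested members, 3 were higher in clone 2 and 1 was lower, where 17% of tested genes were called higher and 13.5% lower. After median centring 1847 genes were called higher and 2019 lower in T-ERG clone 2, against 2199 and 1735 without it. Klk10 had 70.9, 74.3, 73.3, 75.3 and 73.8 FPKM in T-ERG clone 2, against 39.8, 34.7, 43.2, 41.9 and 40.3 FPKM in T-ERG clone 1. Every clone 2 library lay above every clone 1 library, and the difference was 0.87 ± 0.06 log2 units (limma adjusted p = 1.12e-06). Klk12 had 17.4, 12.6, 17.2, 15.2 and 17.1 FPKM in T-ERG clone 2, against 6.54, 11.5, 7.24, 8.53 and 8.25 FPKM in T-ERG clone 1, which did not overlap (0.86 ± 0.14 log2 units, limma adjusted p = 0.000808). Klk8 had 75.85, 90.15, 76.0, 78.3 and 84.1 FPKM in T-ERG clone 2, against 63.05, 42.8, 42.7, 38.6 and 57.9 FPKM in T-ERG clone 1, also without overlap (0.73 ± 0.13 log2 units, limma adjusted p = 0.00124).

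Klk11 went the other way. It had 22.4, 23.2, 20.9, 24.2 and 22.5 FPKM in T-ERG clone 2, against 34.5, 32.2, 35.9, 34.3 and 33.8 FPKM in T-ERG clone 1, which did not overlap (-0.57 ± 0.05 log2 units, limma adjusted p = 1.64e-05). Klk13 had 10.3 to 13.3 FPKM in T-ERG clone 2 and 9.75 to 14.1 FPKM in T-ERG clone 1, a difference of -0.06 ± 0.11 that did not pass (limma adjusted p = 0.739, 95% interval -0.29 to 0.18). Klk14 had 3.42 to 8.74 FPKM in T-ERG clone 2 and 5.44 to 7.97 FPKM in T-ERG clone 1, a difference of -0.20 ± 0.19 (limma adjusted p = 0.471, 95% interval -0.62 to 0.22). For both genes the libraries of the T-ERG clones overlapped.

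**Figure D3:**
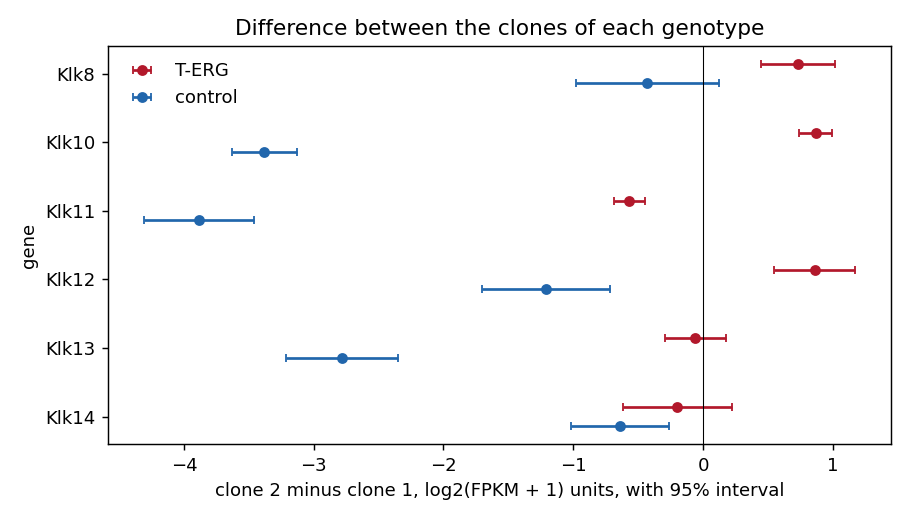
Difference between the clones of each genotype for the 6 tested kallikreins, clone 2 minus clone 1 in log2(FPKM + 1) units with the 95% limma interval over 5 against 5 libraries. In control all points lie left of 0, down to -3.88 for Klk11, with the Klk8 interval spanning 0; in T-ERG Klk8, Klk10 and Klk12 lie right of 0 and Klk11 left of it.

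The make-up of the summed kallikrein level varied by clone. In T-ERG clone 2 Klk8 held 38.3 ± 2.2% of the sum and Klk10 34.9 ± 0.5%, with 10.7 ± 0.4% for Klk11 (SD, 5 libraries). In T-ERG clone 1 these shares were 32.4 ± 5.3%, 26.6 ± 2.4% and 22.7 ± 1.4%. In control clone 2 Klk8 alone held 71.5 to 89.5% of a sum that was at most 12.3 FPKM. In control clone 1 Klk11 held 37.1 ± 4.1% and Klk10 32.1 ± 1.7%, while Klk8 held 15.2 ± 2.9%. The leading gene was thus Klk8 in both T-ERG clones and control clone 2, and in control clone 1 it was Klk11, whose libraries overlapped those of Klk10.

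Within a clone, neighbours in the order of levels often overlapped. In T-ERG clone 2 the order was Klk8, Klk10, Klk11, Klk12, Klk13 and Klk14, and only Klk12 and Klk13 overlapped. In T-ERG clone 1 the order was Klk8, Klk10, Klk11, Klk13, Klk12 and Klk14, and of the neighbours Klk8 and Klk10, Klk10 and Klk11, Klk13 and Klk12, and Klk12 and Klk14 overlapped. In control clone 1 the order was Klk11, Klk10, Klk8, Klk13, Klk12 and Klk14, with overlap of Klk11 and Klk10, of Klk8 and Klk13 and of Klk12 and Klk14. Klk14 was the lowest of the 6 in these 3 clones.

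**Figure D4:**
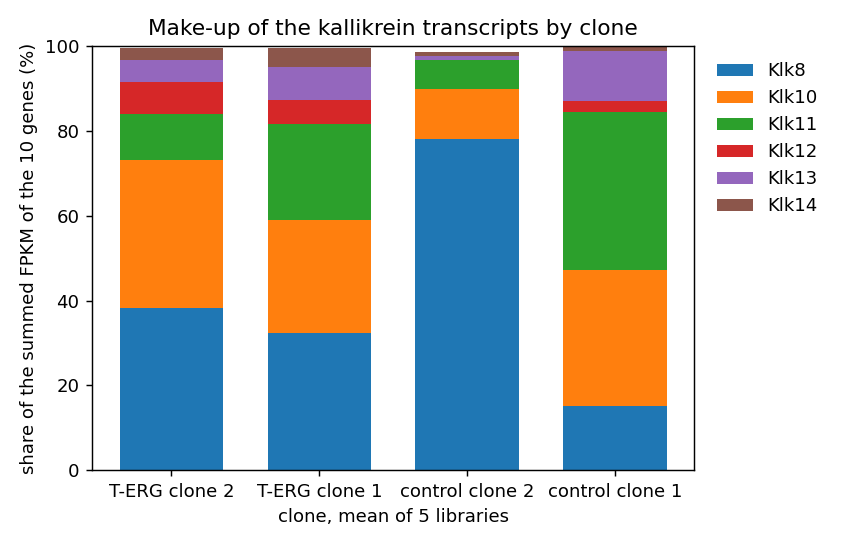
Share of each measured kallikrein in the summed FPKM of the 10 genes, in percent, as the mean over the 5 libraries of each clone. Klk8 holds 38.3% and 32.4% in T-ERG clones 2 and 1, 78.1% in control clone 2 and 15.2% in control clone 1; the small remainder to 100% is Klk9, Klk7 and Klk6.

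Over domes of a clone the levels of the members were weakly correlated. After each clone's mean was subtracted, the correlations of log2(FPKM + 1) over the 20 libraries lay between -0.347 and 0.146 for the 15 pairs, with a median of -0.186. These values are a description, since the libraries of a clone share their cells. They include control clone 2, where Klk12 was listed at 0 in all libraries and Klk13 and Klk14 in most. Noise near the floor can hide shared variation. The 5 genes most like the kallikreins over the 20 libraries, by Pearson correlation with the mean z-score of the 6 tested members, were Mt4 (r = 0.996), Calm4 (0.992), Sprr1b (0.987), Dmkn (0.985) and Acer1 (0.981), again over libraries that fall into 4 clones. Mt4, a metallothionein of squamous epithelium, averaged 4740 and 4380 FPKM in T-ERG clones 2 and 1, and 484 and 1810 FPKM in control clones 2 and 1. Acer1, an alkaline ceramidase, was much lower, at 4.62 and 3.55 FPKM in T-ERG clones 2 and 1 and 0.098 and 1.38 FPKM in control clones 2 and 1.

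The squamous markers followed the order of the kallikreins in their sum but not one by one. The 7 markers summed to 5798 to 6322 FPKM in T-ERG clone 2, 4168 to 4401 in T-ERG clone 1, 394.55 to 445 in control clone 2 and 1912 to 2145 in control clone 1, the same order of clones as the kallikrein sum. All 7 were called lower in control clone 2 than in control clone 1, where 13.2% of tested genes were. Among them were Krt1 (-3.79 log2 units) and Krt10 (-2.91), keratins of suprabasal epidermis. Between the T-ERG clones 3 were called higher in clone 2 and 3 lower, where 17% and 13.5% of tested genes were. By genotype the clone means of Krt1, Krt10, Krtdap and Sprr1b were higher in T-ERG, as for 21.7% of tested genes. Krt1 differed by 2.7 ± 1.33 log2 units (4.59 against control clone 2, 0.8 against control clone 1), and its libraries overlapped. Krt10 differed by 1.93 ± 0.97 (3.38 and 0.47 in that order), Krtdap by 3.83 ± 0.64 (4.69 and 2.98) and Sprr1b by 2.5 ± 0.52 (3.2 and 1.81). Ivl, which encodes involucrin, lay the other way without overlap, at 31.5 to 52.2 FPKM in T-ERG and 85.0 to 221.4 FPKM in control (-1.67 ± 0.43). Flg, the filaggrin gene (-0.73 ± 1.31), and Lor, the loricrin gene (0.12 ± 0.27), overlapped. The 9 luminal markers summed to 2441 to 2597 FPKM in T-ERG clone 2, 3608 to 3891 in T-ERG clone 1, 6083 to 6248 in control clone 2 and 5923 to 6511 in control clone 1, sums made up mostly of Krt19. Of the 8 tested luminal markers 5 were called higher in control clone 2 than in control clone 1 and 2 lower, where 25.1% and 13.2% of tested genes were. Cldn3 (1.27 log2 units), Krt8 (1.10) and Krt18 (1.04) were among the higher, and the 2 lower were Krt19 (-0.12) and Foxa1 (-0.27). The part of these cell states in the kallikrein levels was not tested.

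Inhibitors of epidermal proteases were compared between genotypes in limma on the 4 clone means. Their list is not confined to inhibitors of kallikreins, and this and the following lists were written with earlier results of these data known. In that fit no gene passed at an adjusted p of 0.05 (0% of 12899, smallest adjusted p = 0.281), while 8.44% had an unadjusted p below 0.05. A fit on 2 clones per genotype can miss real differences. With the clone as a random block in limma 1398 genes were called, and with all 20 libraries as independent 4737, fits that take domes for replicates in part or in full. Of 15 inhibitors 9 were tested, and their T-ERG clone means lay above control for 6 and below for 2, against 21.7% and 23.2% of all tested genes. The median difference was 1.02 log2 units, against 0.01 over all genes, and 5 had an unadjusted limma p below 0.05. Of these 5, Spint1 was lower in T-ERG (-0.55 log2 units) and the others were higher. Spink5, which encodes the main inhibitor of epidermal kallikreins, was abundant and overlapped, at 286 to 577.5 FPKM in T-ERG and 339 to 569 FPKM in control, a difference of -0.07 ± 0.38 (limma adjusted p = 0.956). It was lower in clone 2 of each genotype, with differences of -0.89 log2 units in T-ERG and -0.66 in control (limma adjusted p = 1.44e-08 and 2.48e-08).

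Slpi, a secreted inhibitor of leukocyte and epidermal proteases, was at 22.2 to 34.7 FPKM in T-ERG and 0.93 to 13.3 FPKM in control, without overlap. Its difference was 2.31 ± 0.75 log2 units (limma adjusted p = 0.574), with 1.19 against control clone 2 and 3.42 against control clone 1. Slpi was thus higher in control clone 2 than in control clone 1 (2.23 log2 units, limma adjusted p = 3.2e-05), the reverse of the 5 kallikreins called between these clones. Wfdc12, a gene of the same inhibitor family, differed by 2.28 ± 1.00 (limma adjusted p = 0.574), with 3.55 against control clone 2 and 1.02 against control clone 1. Wfdc5 differed by 2.15 ± 0.31 (limma adjusted p = 0.506), at 4.52 to 7.60 FPKM in T-ERG and 0 to 2.44 FPKM in control, and by 3.50 with a pseudocount of 0.1.

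Of 12 activating and co-acting proteases 9 were tested, and 4 had both T-ERG clone means below control while none had them above. The median difference was -0.11 log2 units, and none had an unadjusted limma p below 0.05. Of all tested genes 23.2% lay below, 21.7% above and 8.44% had such a p. Prss8, which encodes the membrane-anchored protease prostasin, was at 4.70 to 10.4 FPKM in T-ERG and 7.39 to 21.2 FPKM in control (-0.74 ± 0.34 log2 units, limma adjusted p = 0.574; -0.33 against control clone 2, -1.16 against control clone 1). Tmprss13, another membrane serine protease gene, differed by -0.68 ± 0.32 (limma adjusted p = 0.574; -0.26 against control clone 2, -1.10 against control clone 1). St14, which encodes matriptase, an activator of epidermal pro-kallikreins, was at 60.0 to 75.0 FPKM in T-ERG and 68.2 to 82.85 FPKM in control (-0.20 ± 0.15, limma adjusted p = 0.649).

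Of 8 adhesion proteins of the outer epidermis, several of them known kallikrein substrates, 7 were tested, and 6 had both T-ERG clone means above control and none below. The median difference was 1.33 log2 units, and 5 had an unadjusted limma p below 0.05. Over all tested genes the shares above, below and with such a p were 21.7%, 23.2% and 8.44%. Of the 7, Dsg1a and Dsc1 passed the filter only through T-ERG, where they were higher, and both count in the 6 and the 5. Dsg1b, a desmoglein, was at 17.8 to 45.9 FPKM in T-ERG and 1.5 to 8.28 FPKM in control (2.59 ± 0.65, limma adjusted p = 0.574; 3.41 against control clone 2, 1.78 against control clone 1). Dsg1a was at 1.31 to 10.55 FPKM in T-ERG and at most 0.36 FPKM in control (2.17 ± 0.71, limma adjusted p = 0.574), and the Dsg1 genes are uncertain because they are near-identical copies. Dsc1, a desmocollin of the same layer, was at 0.92 to 8.71 FPKM in T-ERG and at most 0.35 FPKM in control (1.99 ± 0.63, limma adjusted p = 0.574). With a pseudocount of 0.1 the differences were 4.25 for Dsg1a, 3.93 for Dsc1 and 2.91 for Dsg1b, so the order of these genes depends on it. Between the T-ERG clones, 4 adhesion genes were called higher in clone 2 and 2 lower, where 17% and 13.5% of tested genes were. Between the control clones none was called higher in clone 2 and 4 lower, where 25.1% and 13.2% were. The 2 with the largest difference between the T-ERG clones were Dsg1a, 2.05 log2 units higher, and Dsc1, 1.78 higher (limma adjusted p = 8.59e-08 and 1.05e-05).

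Among 8 receptor and peptide targets 5 were tested, with 2 above and 2 below control by clone means. The median difference was -0.20 log2 units, and 3 had an unadjusted limma p below 0.05. For all tested genes the shares above, below and with such a p were 21.7%, 23.2% and 8.44%. Il1f9, a cytokine gene of the interleukin-36 group, was at 8.76 to 14.2 FPKM in T-ERG and 0.91 to 3.35 FPKM in control (2.22 ± 0.30, limma adjusted p = 0.491). Tslp, an epithelial cytokine gene induced downstream of kallikreins in mouse skin, was at 20.4 to 38.5 FPKM in T-ERG and 2.23 to 16.4 FPKM in control (1.97 ± 0.69, limma adjusted p = 0.574; 0.98 against control clone 2, 2.97 against control clone 1). F2r, a thrombin receptor gene, was at 0.34 to 1.28 FPKM in T-ERG and 1.09 to 2.63 FPKM in control (-0.76 ± 0.27, limma adjusted p = 0.574; -1.35 with a pseudocount of 0.1). F2r passed the filter only through control, the group where it was higher, and it counts in the 2 below and the 3. F2rl1, the kallikrein-activated receptor gene, was at 18.7 to 29.6 FPKM in T-ERG and 28.2 to 37.4 FPKM in control. Camp, the cathelicidin precursor gene cut by kallikreins, was listed at 0 in all libraries.

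**Figure D5:**
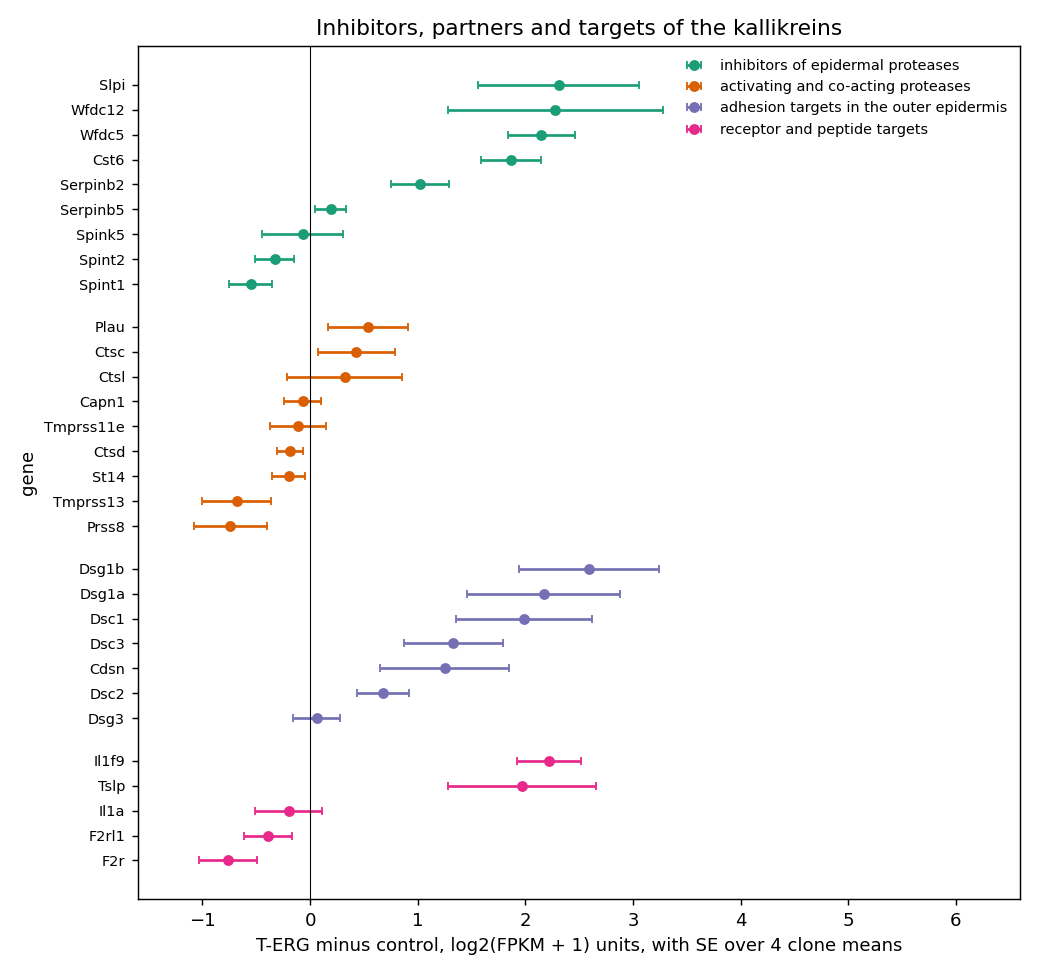
Inhibitors of epidermal proteases, and partners and targets of the kallikreins. The horizontal axis is the T-ERG minus control difference in log2(FPKM + 1) units, with its SE over 4 clone means. Each row is a tested gene, grouped by list. Dsg1b lies farthest right at this pseudocount of 1, at 2.59, and Slpi, Wfdc12 and Wfdc5 lie between 2.15 and 2.31, while Spink5, St14 and Prss8 lie left of 0; no difference passed the adjusted test.

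Of 15 transcription factors of squamous differentiation 14 were tested, and 4 had both T-ERG clone means above control and 2 below, with a median difference of 0.08 log2 units and 2 with an unadjusted p below 0.05. Over all tested genes these shares were 21.7%, 23.2% and 8.44%. Ovol1 differed by 0.73 ± 0.40 (limma adjusted p = 0.583; 1.27 against control clone 2, 0.18 against control clone 1) and Prdm1 by -0.73 ± 0.37 (limma adjusted p = 0.577; -0.37 against control clone 2, -1.09 against control clone 1). Between the control clones 11 of the 14 were called lower in clone 2 and 2 higher, where 13.2% and 25.1% of tested genes were, with a median of -0.63 log2 units against 0.10 over all genes. The 2 with the largest difference were Klf4, a barrier-forming Krüppel-like factor, lower with a difference of -1.44 (limma adjusted p = 1.98e-11), and Maf, higher with a difference of 1.35 (limma adjusted p = 1.15e-05). Between the T-ERG clones 3 of the 14 were called higher and 4 lower in clone 2, where 17% and 13.5% of tested genes were.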

How the data were processed

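RNA was measured in 20 libraries of mouse ventral prostate organoids, 10 per genotype in 2 clones of 5 domes. Per the labels' protocols, 3000 cells were seeded in each 30 µL dome, RNA of 1 dome gave 1 library, cDNA was amplified in 12 cycles, and sequencing was paired, 40 bases a read. The authors deposited log2(FPKM + 1) per gene. All table entries (100.0%) came back as FPKM with 2 decimals, within 0.001 hundredths. RSEM 1.3.0, DESeq2 and build mm10 are named in the submitters' processing notes, without their roles; the aligner is not given. Kallikreins resemble each other in sequence, and how shared reads were assigned is not stated, which leaves some doubt in each value. The header gave 2 T-ERG columns the same number; both were taken as clone 2, because the 2 T-ERG samples matching no other column belong to clone 2. Sums of FPKM ran from 728255 to 794589 per library.

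Genes reaching an FPKM of 1 in 5 or more libraries (12899) were tested with limma 3.58.1 in R 4.3.3 (intensity trend, two-sided, Benjamini-Hochberg over all tested genes, threshold 0.05). Genotypes were compared on 4 clone means and clones on 5 against 5 libraries. The fits were tested on simulated data. The members and gene lists were chosen with earlier results of these data known. Pathway genes named are the 3 tested members per list with the largest difference and separate clone means, except that some genes are not reported here; Spink5, F2rl1, Camp and the marker genes were named after their values were seen. Alternatives were another pseudocount, other filters, centring, quantile normalization, no trend, block fits and leaving out each clone or library. Positions and promoters are from RefSeq on GRCm38.p6, the assembly of mm10.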

Additional observations from a re-analysis of the deposited data

Results flagged for a closer look

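Among the 23 groups of 5 libraries examined for the 6 tested kallikreins, 1 held a library far from the rest. Klk14 was at 0.27 FPKM in library 6 of control clone 2, while the other 4 libraries of that clone were listed at 0. Because the other 4 were tied at 0, any value above 0 would have been picked out. The usual rate of about 1 group in 20 by chance therefore does not apply to this group. The value lies below the lowest library of control clone 1, at 0.29 FPKM.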

How the results depend on the processing

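No gene passed between T-ERG and control in limma on clone means under any filter, pseudocount, scaling or trend tried, nor without each clone in turn (0 to 0). Those fits, on at most 2 clones per genotype, can miss real differences, so 0 calls do not show that none exist. Calls appeared only where domes counted as replicates, with 4737 for all 20 libraries as independent and 1398 with the clone as a random block. With the clone number as a replicate block the count was 0. The clone differences of the genotypes correlated at 0.168 over tested genes, and the clones share only a number, so they were not paired. Leaving out each library in turn gave 3513 to 3797 genes between the T-ERG clones (3934 with all) and 4539 to 4820 between the control clones (4939 with all). The Klk13 difference between T-ERG clones, which did not pass, reversed to 0.01 without library 4 and ranged from -0.12 to 0.01 over such fits. The calls of the other tested kallikreins between clones kept their direction and side of the threshold under every alternative run, apart from Klk8 in control without library 7; Klk14 was not in the fit with a mean FPKM of at least 5. Absolute depth is unknown, so no counting interval can be given for low values.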
